A study of Mus musculus with 12 samples.

Results

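Primary entorhinal cortex (EC) neuron cultures that received a scrambled hairpin virus were compared with cultures that received an empty vector virus. Neither virus was designed to change Dek, so the comparison shows how far the controls of a silencing and an overexpression experiment differed from each other. The members are all genes that passed a low count filter in these 6 libraries, 14096 of the 24100 genes in the deposited table. All cultures came from EC of E17 mouse embryos, and the study's methods name the C57Bl/6J strain. They were transduced after 7 days in vitro at 1e10 viral genomes per ml and were harvested 4 days later. The scrambled hairpin group (n = 3) received AAV1-mCherry-U6-scrmb-shRNA, and the empty vector group (n = 3) received AAV1-hSyn1-mCherry-WPRE. The other 6 libraries of the series hold a Dek hairpin group (AAV1-mCherry-U6-mDEK-shRNA, n = 3) and a Dek cDNA group (AAV1-hSyn1-mDEK-IRES-mCherry, n = 3), and they are used here only for values set beside the comparison. Within a pair of control libraries the hairpin, the promoter and the rest of the vector changed together, and the labels give no culture, litter or preparation date, so these cannot be told apart.

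As background, adeno-associated virus carries its cargo into neurons as an episome. The U6 promoter drives a short hairpin RNA through RNA polymerase III, after which Dicer cuts the hairpin and an Argonaute protein loads the guide strand. A scrambled hairpin enters the same machinery with a sequence chosen to match no intended target. The hSyn1 promoter, from the synapsin I gene, drives a protein-coding transcript in neurons and loads no hairpin. Cultured cortical neurons are spontaneously active, and immediate early genes such as Fos and Npas4 follow that activity within minutes, so differences between cultures in activity, maturation or cell make-up can appear in bulk RNA.

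The estimated counts of a library summed to between 17078551 and 18555472 over these 6 libraries, and to between 15679567 and 18933382 over all 12. The log2 expression profiles of the groups separated, with library correlations of 0.991 to 0.995 within the scrambled hairpin group, 0.993 to 0.995 within the empty vector group and 0.981 to 0.984 between the groups. Scrambled hairpin replicate 1 stood somewhat apart from replicates 2 and 3. Its summed astrocyte markers reached 732 CPM (counts scaled to a common library size per 1e6) against 1056 and 1166 CPM, and its summed immediate early genes reached 1501 CPM against 1083 and 1079 CPM. Results that rest on these lists are therefore also given without it. The replicates are wells in the study's description, so the p-values measure the spread between wells.

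Dek itself, the chromatin protein that the study manipulated, was measured at 35.2, 36.6 and 36.4 CPM in the scrambled hairpin libraries. The empty vector libraries held 36.0, 38.8 and 41.1 CPM. The groups overlapped, and the difference did not pass the test (log2FC = -0.10, SE 0.07, adjusted p = 0.23, edgeR quasi-likelihood test with Benjamini-Hochberg adjustment, used for every adjusted p given here). In the Dek hairpin libraries Dek stood at 6.65 to 8.62 CPM, and in the Dek cDNA libraries at 129 to 156 CPM, so the controls shared a middle level. Mapt, which encodes tau, was at 1508, 1559 and 1571 CPM under the scrambled hairpin. It was at 1721, 1678 and 1775 CPM under the empty vector, a small difference without overlap (log2FC = -0.16, SE 0.03, adjusted p = 0.0023). With offsets for GC content and transcript length, described with the length pattern, its log2FC was -0.08 (adjusted p = 0.091), so the call was lost.

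Many genes differed by a small amount. Of 14096 genes tested, 6072 passed an adjusted p of 0.05, which is 43.1% of the genes tested, with 2996 higher (21.3%) and 3076 lower (21.8%) under the scrambled hairpin. Among the called genes 71.7% differed by less than 0.5 on the log2 scale, and the median absolute log2FC was 0.35. Only 398 genes (2.82%) were both called and beyond 1 on the log2 scale in either direction, 150 of them higher and 248 lower. The 3 scrambled hairpin libraries did not overlap the 3 empty vector libraries for 7523 genes, or 53.4% of those tested. A gene that separates the groups is therefore ordinary in this comparison, and the counts of the gene groups below are to be read against these shares.

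The largest rises included genes that were low under the empty vector. Tuba1c, an alpha-tubulin gene on chromosome 15 (GRCm38, 99029891 to 99038105), stood at 77.6, 89.1 and 97.1 CPM in the scrambled hairpin libraries. The empty vector libraries held 2.22, 3.56 and 2.29 CPM, and the Dek hairpin libraries held 62.0 to 65.6 CPM. The log2FC was 5.04 (SE 0.15, adjusted p = 3.1e-08). Tuba1c has near-identical copies in the same gene cluster, and reads could have been divided among them by the counting. Tuba1b rose by a log2FC of 0.28 (adjusted p = 0.0018), which was not called with offsets (0.09, adjusted p = 0.22). Tuba1a, at 7430 to 9472 CPM over the 6 libraries, had a log2FC of -0.14 (adjusted p = 0.12) and was called lower with offsets (-0.31, adjusted p = 0.0087). H2-D1, a polymorphic class I antigen-presenting gene, was at 44.8, 34.0 and 35.1 CPM under the scrambled hairpin. Under the empty vector it was at 5.22, 6.04 and 8.29 CPM, a log2FC of 2.54 (SE 0.17, adjusted p = 8.1e-06). Its close relative H2-K1 overlapped between the groups (log2FC = -0.06, adjusted p = 0.73), and the division of reads between such relatives is uncertain.

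Slc7a11, the cystine importer that feeds glutathione synthesis, rose from 13.5, 13.99 and 9.93 CPM under the empty vector to 51.8, 51.9 and 54.95 CPM under the scrambled hairpin (log2FC = 2.09, SE 0.10, adjusted p = 7.9e-08). The metallothionein genes Mt1 and Mt2, which bind zinc and copper, rose with log2FC of 1.18 (adjusted p = 1.9e-07) and 1.46 (adjusted p = 4.5e-05). Mt2 was at 133, 166 and 180 CPM against 55.6, 58.0 and 60.4 CPM. Further rises concerned Cyp26b1, which degrades retinoic acid (log2FC = 1.58, adjusted p = 9e-07), Htr3a, the ionotropic serotonin receptor of a class of GABAergic interneurons (log2FC = 1.71, adjusted p = 1.3e-05), and the chemokine Cxcl14 (log2FC = 1.75, adjusted p = 6e-08). Kcnj10, an inward rectifier potassium channel best known from astrocytes, rose with a log2FC of 1.73 (adjusted p = 0.016). It was at 21.7 CPM in scrambled hairpin replicate 1 and at 36.5 and 44.8 CPM in replicates 2 and 3, against 8.36 to 13.2 CPM under the empty vector, and its log2FC was 1.98 without that replicate. The Kcnj10 call was lost without empty vector replicate 2 (adjusted p = 0.052) or replicate 3 (adjusted p = 0.071). Pisd-ps1 (log2FC = 1.44), a transcribed pseudogene, and Gm38667 (log2FC = 2.34), a gene model that overlaps the clustered protocadherins, share reads with close copies and are uncertain. The long noncoding transcript 5930403L14Rik (log2FC = 1.46, adjusted p = 0.032) lies within Prdm16 and cannot be separated from it, since strand-aware counting is not stated. The 5930403L14Rik call was lost without the low count filter (adjusted p = 0.10), with the replicate block (adjusted p = 0.074) and without replicate 2 or 3 of either group (adjusted p from 0.073 to 0.11).

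Ttr, which encodes the thyroxine carrier transthyretin and marks the choroid plexus, held 291, 440 and 453 estimated counts in the scrambled hairpin libraries and 6, 1 and 1 in the empty vector libraries. The ratio of the summed counts, scaled to library size, was 154 with an exact binomial 95% interval of 77.7 to 356 that covers counting error only. The Dek hairpin libraries held 1899, 250 and 612 counts and the Dek cDNA libraries 3, 1 and 0. Other genes of the choroid plexus were near 0: Kl was at 0.77 to 1.31 CPM and Folr1 at 0.85 to 1.60 CPM over the 6 libraries, with overlap between the groups, and Otx2 was at or below 0.18 CPM and was not tested. Foxj1, a regulator of motile cilia, rose with a log2FC of 0.39 (adjusted p = 0.015) and was not called with offsets (0.24, adjusted p = 0.12) or without empty vector replicate 3 or scrambled hairpin replicate 2 or 3 (Foxj1 adjusted p from 0.061 to 0.066).

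The genes with the largest falls were mostly long transcripts. Uhmk1, a kinase that binds RNA, was at 11.4, 11.4 and 11.3 CPM under the scrambled hairpin. It was at 43.3, 45.1 and 43.9 CPM under the empty vector, with a log2FC of -1.96 (SE 0.07, adjusted p = 4.1e-09). Lmbrd2 fell to 5.68, 6.14 and 5.80 CPM from 24.9, 24.9 and 22.3 CPM (log2FC = -2.03, SE 0.10, adjusted p = 2.1e-08). The synaptic adhesion gene Tenm1 (log2FC = -1.80), the ubiquitin ligase Cbl (-1.78), the nuclear receptor corepressor Nrip1 (-1.67), the sodium-activated potassium channel Kcnt2 (-1.57) and the integrin Itgb8 (-1.56) also fell without overlap. Of the 15 largest falls, Fam205a2 (-1.98) belongs to a family of close copies and is uncertain. Each of the other genes named in this paragraph was also lower in the Dek hairpin libraries than in the Dek cDNA libraries, with log2FC of -3.08 for Lmbrd2 and -2.10 for Uhmk1.

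The direction of the difference followed transcript length. The genes were divided into deciles by the length of their longest annotated transcript. In the shortest decile (up to 1458 bases) 48.2% of genes were higher and 3.85% lower, with a median log2FC of 0.25. In the longest decile (6930 bases and over) 4.28% were higher and 60.8% lower, with a median of -0.29, and the medians fell at every step between. GC content moved in the same way, from a median of -0.17 in the decile with the lowest GC content to 0.14 in the decile with the highest. The Dek hairpin libraries, which took no part in this comparison, carried the same mark, and the Dek cDNA libraries did not. With the mean of the empty vector libraries as reference, the shortest decile exceeded the longest by 0.54, 0.52 and 0.50 on the log2 scale in the scrambled hairpin libraries and by 0.68, 0.73 and 0.84 in the Dek hairpin libraries. The Dek cDNA libraries were at -0.02, 0.21 and -0.15, and the empty vector libraries at -0.05 to 0.05. All 6 hairpin libraries therefore lay above all 6 hSyn1 libraries. The part of RNA quality, fragment length and library preparation in this was not tested.

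**Figure D1:**
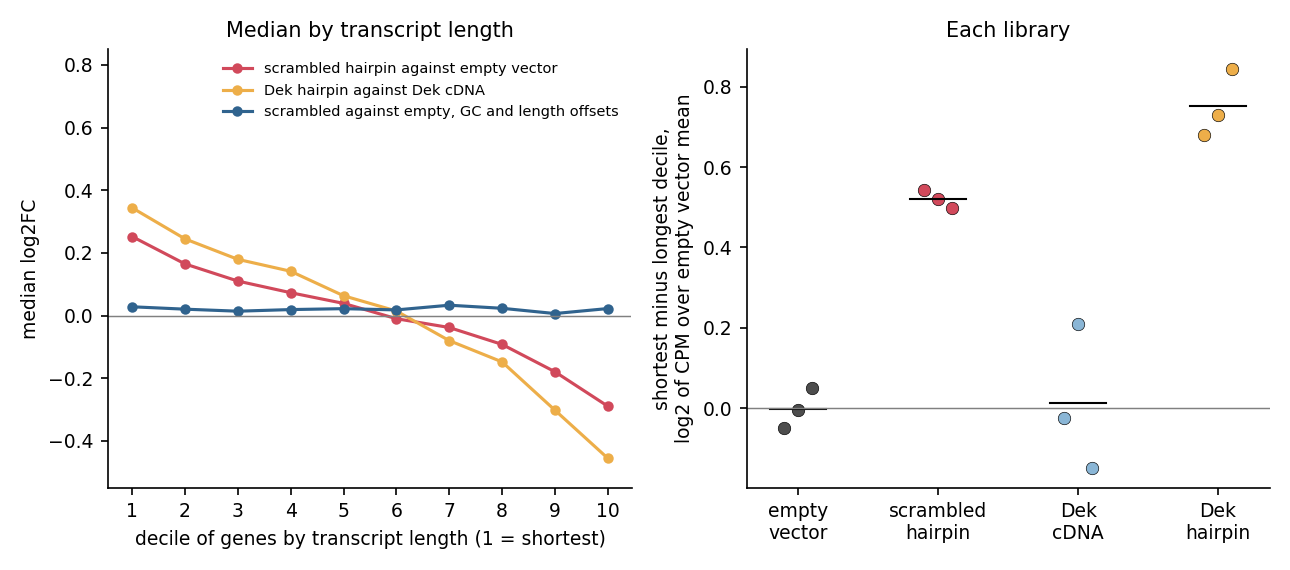
Transcript length and the difference between the libraries. Left, median log2FC (y axis) in each decile of genes by transcript length (x axis), for scrambled hairpin against empty vector, for Dek hairpin against Dek cDNA, and for scrambled hairpin against empty vector with offsets; right, the log2 difference between the shortest and the longest decile in each library (points, 3 per group; line, mean). The first pair of curves falls from 0.25 to -0.29 and from 0.34 to -0.46, while the curve with offsets stays close to 0.

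A correction was therefore set beside the main counts. Smooth offsets on GC content and log transcript length were fitted for each library, which flattens the length pattern by construction. With these offsets 4645 of 14013 genes (33.1%) passed, 2554 higher and 2091 lower, and 310 (2.21%) were beyond 1. The counts of the lists of function with offsets are given beside those without it, and the offset value of a single gene is given where it ended the call or moved by more than 1.5 times. The lists below were set against the shares of higher and lower genes among all genes tested, 21.3% and 21.8% without offsets and 18.2% and 14.9% with them. Without scrambled hairpin replicate 1 the shares were 22.4% and 23.2%, with 3.58% of genes called beyond 1.

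The machinery of energy and protein turnover was higher under the scrambled hairpin. Of 74 nuclear-encoded subunits of the respiratory chain and ATP synthase, 69 were higher and 0 lower (median log2FC = 0.34, against 0.01 over all genes tested), and 45 were higher and 0 lower with offsets (median 0.14). Ndufs5, a subunit of complex I, was at 133, 137 and 137 CPM against 73.7, 83.9 and 82.4 CPM (log2FC = 0.76, SE 0.05, adjusted p = 3.1e-07), and Uqcr11 of complex III had a log2FC of 0.50 (0.18 with offsets). Of 31 proteasome subunits 25 were higher and 1 lower (median 0.26), which became 14 and 0 with offsets (median 0.11). Psmb4 of the core particle rose by a log2FC of 0.38 (adjusted p = 1.4e-05), and by 0.16 with offsets. Lysosomal genes rose in 19 of 38 cases and fell in 2, and in 14 and 0 with offsets, with the protease Ctsd at a log2FC of 0.38 (0.21 with offsets). Cytosolic ribosomal proteins behaved differently under the correction: 64 of 79 were higher and 0 lower without it (median 0.21), but 20 were higher and 12 lower with it (median -0.01). These transcripts are among the shortest in the genome, and their rise could not be separated from the length pattern. Without scrambled hairpin replicate 1 the counts were 67 of 74 for the respiratory chain, 24 of 31 for the proteasome and 66 of 79 for the ribosome.

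**Figure D2:**
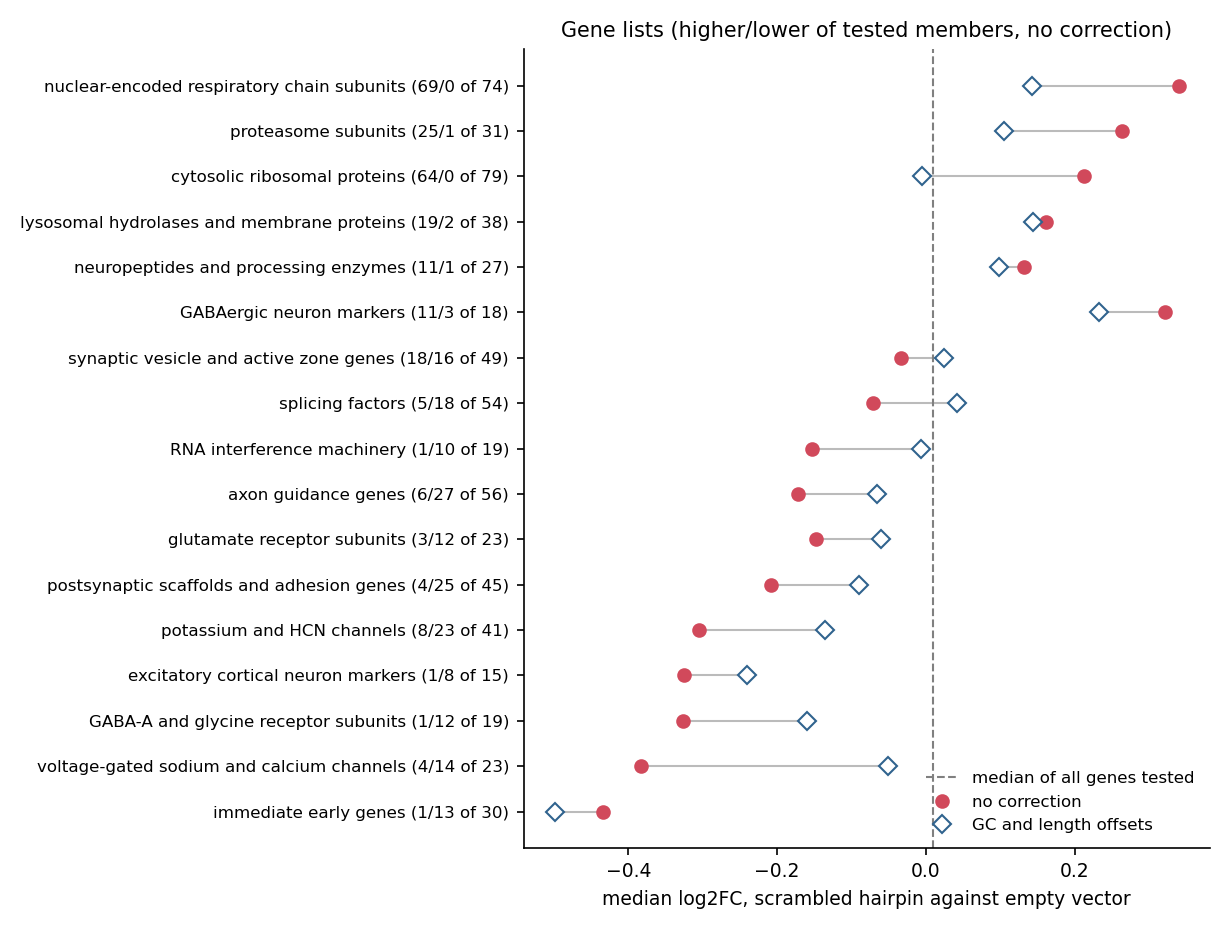
Median log2FC of 17 gene lists for scrambled hairpin against empty vector. Filled points are medians without correction, open diamonds medians with GC and length offsets, and the dashed line is the median of all genes tested; the numbers beside each name are members higher and lower of members tested. Respiratory chain subunits have the highest median (0.34) and immediate early genes the lowest (-0.43).

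Receptors, channels and scaffolds of the synapse were lower more often than higher without offsets. Among voltage-gated sodium and calcium channels 4 of 23 were higher and 14 lower (median -0.38), which became 3 and 5 with offsets (median -0.05). Scn2a, the sodium channel of excitatory axons, was at 174, 193 and 189 CPM against 273, 260 and 243 CPM (log2FC = -0.48, adjusted p = 1.4e-05). With offsets its log2FC was -0.12 (adjusted p = 0.071), so this call was lost. Gria2, the AMPA receptor subunit that keeps the channel impermeable to calcium, lost its call in the same way (log2FC = -0.58 without offsets and -0.10 with them, adjusted p = 2.2e-07 and 0.069). Over all 23 glutamate receptor subunits tested, 3 were higher and 12 lower, and 7 and 6 with offsets. The metabotropic receptor genes Grm2 and Grm7 kept their falls. Grm2 was at 14.02, 16.6 and 14.5 CPM against 42.0, 38.6 and 38.0 CPM (log2FC = -1.39 without offsets and -1.38 with them, adjusted p = 8.6e-08 and 9.9e-08), and Grm7 had a log2FC of -0.96 and -0.88.

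GABA-A and glycine receptor genes held their direction better. Without offsets 12 of 19 were lower and 1 higher (median -0.33), and with offsets 10 were lower and 1 higher (median -0.16). Gabrb2, the beta subunit of many synaptic receptors, was at 116, 108 and 108 CPM against 183, 186 and 186 CPM (log2FC = -0.74, SE 0.04, adjusted p = 1.1e-07). Gabra5, a subunit found mainly outside the synapse, had a log2FC of -0.66 (adjusted p = 3.1e-07). The exception was Gabrd, the delta subunit of tonic inhibition, at 51.4, 43.9 and 40.7 CPM against 23.5, 24.8 and 26.8 CPM (log2FC = 0.85, adjusted p = 1.2e-05). Potassium and HCN channels were lower in 23 of 41 cases and higher in 8, and lower in 17 and higher in 9 with offsets, with Kcnj2 at a log2FC of -1.26 and Kcnma1 at -1.05 (-0.64 with offsets). Postsynaptic scaffolds and adhesion genes were lower in 25 of 45 cases and higher in 4 (17 and 10 with offsets), among them Dlg2 (log2FC = -0.67, and -0.36 with offsets). On the presynaptic side 18 of 49 genes were higher and 16 lower, and 21 and 11 with offsets. There the short vesicle genes Vamp2 (log2FC = 0.43) and Cplx1 (0.38, and 0.22 with offsets) rose while the large active zone genes Rims1 (-1.01) and Erc2 (-0.77) fell, and these 4 calls held with offsets.

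Immediate early genes had the lowest median of the lists that describe a function. Of 30 members tested 13 were lower and 1 higher (median log2FC = -0.43), and with offsets 14 were lower and 0 higher (median -0.50). Npas4, a transcription factor induced by calcium influx in neurons, was at 112, 92.3 and 94.3 CPM under the scrambled hairpin. Under the empty vector it was at 215, 215 and 187 CPM (log2FC = -1.04, SE 0.08, adjusted p = 2e-05). Egr3, a zinc finger factor, was at 6.87, 6.14 and 7.70 CPM against 22.5, 21.5 and 16.9 CPM, the largest fall of the list (log2FC = -1.55, SE 0.13, adjusted p = 1.5e-06). Fos was at 106, 75.1 and 82.0 CPM against 157, 155 and 145 CPM (log2FC = -0.80, SE 0.13, adjusted p = 0.0026). The groups did not overlap for any of these genes.

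The orphan nuclear receptor Nr4a1 was at 50.7, 30.3 and 35.3 CPM against 75.7, 81.7 and 73.2 CPM (log2FC = -0.99, adjusted p = 0.011). Homer1, which scaffolds metabotropic glutamate receptors, fell by a log2FC of -0.49 (adjusted p = 1.6e-05; -0.19 with offsets), and the ERK phosphatase Dusp6 by -0.52 (adjusted p = 1.7e-05). Not every member moved. Arc, at 21.6, 20.9 and 21.7 CPM against 39.7, 28.3 and 18.8 CPM, did not pass the test (log2FC = -0.43, SE 0.29, adjusted p = 0.29), nor did Egr1 (log2FC = -0.38, adjusted p = 0.17) or Jun (log2FC = 0.22, adjusted p = 0.49). Without empty vector replicate 3 Arc (log2FC = -0.67, adjusted p = 0.0038) and Egr1 (-0.54, adjusted p = 0.0049) were called lower. Jund was the member that was higher (log2FC = 0.30, adjusted p = 0.035), and it was not called with offsets (Jund at 0.07, adjusted p = 0.46) or without any of 4 libraries, scrambled hairpin replicates 1 and 2 and empty vector replicates 2 and 3 (adjusted p from 0.073 to 0.12). Scrambled hairpin replicate 1 was the highest of its group in the summed list, and without it 20 of the 30 members were lower and 0 higher. Fosb was among them, with a log2FC of -0.57 (adjusted p = 0.27) with that library and -1.05 (adjusted p = 4.2e-07) without it.

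Genes that follow activity with a delay were divided. Of 27 tested 4 were higher and 6 lower, with offsets 4 and 4, and without scrambled hairpin replicate 1 the counts were 5 and 13. The neuronal pentraxins, secreted organizers of excitatory synapses on interneurons, were higher: Nptx1 was at 34.6, 28.4 and 30.8 CPM against 15.3, 16.1 and 13.9 CPM (log2FC = 1.05, adjusted p = 2e-06), and Nptx2 at 74.1, 44.2 and 53.2 CPM against 18.9, 21.3 and 26.0 CPM (log2FC = 1.37, adjusted p = 0.008). Sst, the neuropeptide somatostatin, was lower at 167, 138 and 121 CPM against 274, 268 and 243 CPM (log2FC = -0.88, adjusted p = 0.0019). The neurotrophin Bdnf was not called with all libraries (log2FC = -0.33, adjusted p = 0.43). It was at 144 CPM in scrambled hairpin replicate 1 and at 83.8 and 83.0 CPM in the others, and without that replicate its log2FC was -0.65 (adjusted p = 0.025).

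**Figure D3:**
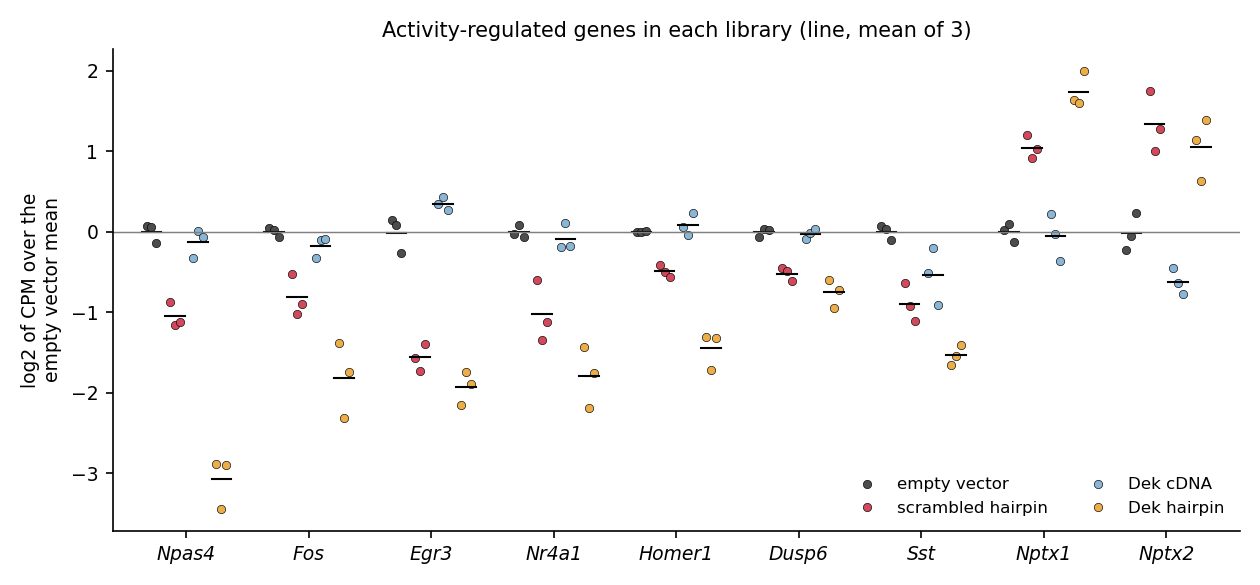
Activity-regulated genes in all 12 libraries. The y axis is the log2 of CPM over the mean of the empty vector libraries, each point is a library and each line the mean of the 3 plotted values of a group. The scrambled hairpin points lie below the empty vector points for Npas4 to Sst and above them for Nptx1 and Nptx2, and the Dek hairpin points lie on the same side.

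Several activity-regulated promoters contain the core of the cyclic AMP response element, which the factor CREB binds, and these letters are shown for members that fell. The 250 bases before each annotated start (RefSeq, GRCm38.p6) were searched for TGACGTC on either strand, with no other motif searched. The letters were present in 2.78% of 32851 windows and in 5.45% of the 10904 tested genes that had a window. Of 25 tested immediate early genes with a window 8 held them (Egr2, Npas4, Nr4a3, Btg2, Dusp1, Maff, Per1 and Ppp1r15a), and of the 10 that were lower 4 did. The sequences run 5′ to 3′ on the strand of the gene, with the match that is placed below in capitals, for Npas4 (chr19:4990104-4990170, minus strand), Nr4a3 (chr4:48045070-48045136, plus strand), Per1 (chr11:69099990-69100056, plus strand) and Sst (chr16:23890856-23890922, minus strand), whose promoter is the textbook case of this element.
Npas4: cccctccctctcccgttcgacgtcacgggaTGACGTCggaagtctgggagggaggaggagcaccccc
Nr4a3: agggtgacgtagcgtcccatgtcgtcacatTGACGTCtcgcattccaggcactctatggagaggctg
Per1: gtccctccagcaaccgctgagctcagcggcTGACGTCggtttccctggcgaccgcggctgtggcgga
Sst: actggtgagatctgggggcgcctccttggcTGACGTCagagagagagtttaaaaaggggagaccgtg
The Npas4 window also holds GACGTCA, the same letters on the opposite strand, in lower case before the capitals, and the Sst match reads as TGACGTCA and so matches on both strands. The Nr4a3 call was lost with offsets (log2FC = -1.08, adjusted p = 0.057), with the replicate block (adjusted p = 0.051) and without replicate 2 or 3 of either group (Nr4a3 adjusted p from 0.075 to 0.086). The capitals began 169, 205, 132 and 48 bases before the start, in that order. They are a description of the windows, and their part in the differences was not tested.

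Markers of excitatory cortical neurons were lower and most markers of GABAergic neurons higher. In bulk RNA fewer cells of a type and less RNA per cell cannot be told apart. Of 12 pan-neuronal markers 12 passed the low count filter. Their summed level was 8969, 9039 and 9043 CPM under the scrambled hairpin against 8999, 8671 and 8711 CPM under the empty vector, which overlapped. Excitatory markers summed to 878, 908 and 946 CPM against 1296, 1299 and 1265 CPM, without overlap and 0.707 times as high. An exact two-sided permutation test gave p = 0.10, the smallest that 3 against 3 libraries allow. Among the 15 members 8 were lower and 1 higher, with the same counts under offsets. Neurod6, a transcription factor of cortical projection neurons, was at 84.0, 80.5 and 81.7 CPM against 151, 156 and 148 CPM (log2FC = -0.89, SE 0.04, adjusted p = 3.1e-08). Mef2c, which limits excitatory synapse number, fell by a log2FC of -0.67 (adjusted p = 2.5e-07; -0.38 with offsets), while Cux1 rose (log2FC = 0.26, and 0.61 with offsets). The vesicular glutamate transporter Slc17a7, the defining marker, was at 79.3, 112 and 117 CPM against 157, 136 and 135 CPM but did not pass the test (log2FC = -0.48, SE 0.17, adjusted p = 0.07). Without scrambled hairpin replicate 1 its log2FC was -0.32 and it was called (adjusted p = 0.00063), as it was with offsets (log2FC = -0.58, adjusted p = 0.037).

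GABAergic markers summed to 5715, 5583 and 5596 CPM against 4914, 4833 and 4683 CPM, 1.17 times as high and without overlap (exact permutation p = 0.10). Most of this gap in the sum came from Reln and Gad1, and Reln is not specific to GABAergic neurons. Of 18 members 11 were higher and 3 lower, and 10 and 1 with offsets. Gad1, which makes GABA, was at 1580, 1484 and 1479 CPM against 1154, 1216 and 1239 CPM (log2FC = 0.33, adjusted p = 2.2e-05). Reln, a secreted protein of EC layer II and Cajal-Retzius cells as well as of interneurons, was at 1325, 1252 and 1287 CPM against 872, 812 and 746 CPM (log2FC = 0.67, adjusted p = 2.3e-06). The interneuron transcription factors Dlx1 (log2FC = 0.66) and Lhx6 (0.46) and the neuropeptide Vip (0.56) rose as well. Sst, named above, fell, as did Erbb4 (log2FC = -0.30), which was higher with offsets (0.16, adjusted p = 0.031). Among regional markers Cck rose (log2FC = 0.84, adjusted p = 0.00011, and 0.54 with offsets) and Etv1 fell (-0.88, adjusted p = 5.8e-05, and -0.57 with offsets).

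Glial and progenitor markers varied with scrambled hairpin replicate 1. Astrocyte markers summed to 732, 1056 and 1166 CPM against 746, 648 and 581 CPM, so the groups overlapped (1.49 times as high, exact permutation p = 0.20, and 1.69 times without that replicate). Of 14 members 4 were higher and 0 lower, and 9 and 0 without it. Aqp4, the astrocyte water channel, was at 17.7, 31.3 and 33.6 CPM against 20.3, 17.8 and 15.6 CPM (log2FC = 0.62, adjusted p = 0.13), and Gfap was at 2.67 to 8.70 CPM in the scrambled hairpin libraries and 3.44 to 7.55 CPM in the empty vector libraries. Progenitor markers summed to 765, 1133 and 1278 CPM against 741, 652 and 532 CPM (1.65 times as high, exact permutation p = 0.10, and 1.88 times without that replicate), with 2 of 10 members higher and 0 lower, and 6 and 0 without it. Microglia markers summed to 17.4 to 22.9 CPM and overlapped, and endothelial markers to 2.11 to 3.76 CPM. Within the microglia list Aif1 was lower without overlap (3.69, 3.51 and 3.79 CPM against 9.27, 8.83 and 8.29 CPM, log2FC = -1.26, adjusted p = 1e-05), while P2ry12 and Tmem119 were at or below 0.0596 CPM in all 6 libraries. Fibroblast and meningeal markers summed to 45.6, 55.3 and 57.1 CPM against 77.1, 72.8 and 61.2 CPM, without overlap. The ratio was 0.749 (exact permutation p = 0.10), and 0.799 without scrambled hairpin replicate 1. Of 11 members tested 1 was higher and 3 were lower. Oligodendrocyte precursor markers were higher in 1 and lower in 0 of 6. Of the 8 oligodendrocyte markers tested Mbp was the member that was lower, and it is described with Plxnd1 below.

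The embryos behind the groups also differed in sex make-up as far as the Y chromosome shows it. Y-linked genes summed to 58.3, 57.5 and 57.9 CPM under the scrambled hairpin. They summed to 92.5, 102 and 101 CPM under the empty vector (0.588 times as high, exact permutation p = 0.10). All 4 Y-linked genes that passed the filter were lower, with Ddx3y at a log2FC of -0.999 (adjusted p = 6.5e-07), and Xist, the RNA that silences an X chromosome, was higher (log2FC = 0.45, adjusted p = 5.9e-06, and 0.94 with offsets). The Dek hairpin libraries summed to 52.8 to 62.0 CPM and the Dek cDNA libraries to 93.1 to 112 CPM. The libraries of each vector type thus shared a Y-linked level. The part of sex make-up and of glial content in the differences above was not tested.

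**Figure D4:**
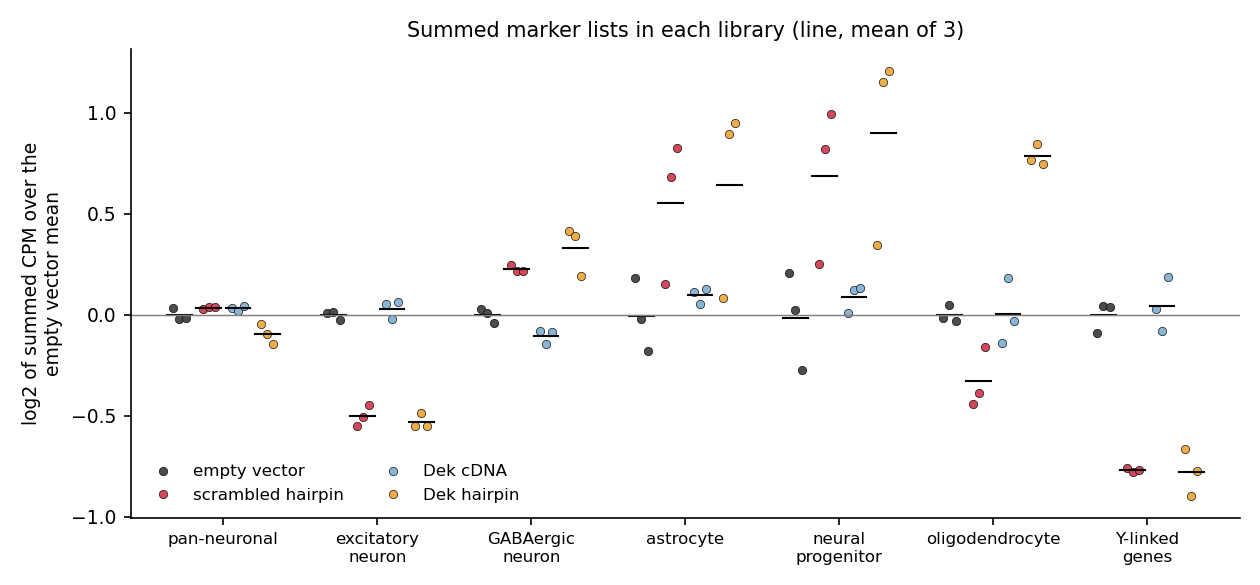
Summed marker lists in all 12 libraries. The y axis is the log2 of the summed CPM over the mean of the empty vector libraries, each point is a library and each line the mean of the 3 plotted values of a group. Excitatory markers and Y-linked genes are lower and GABAergic markers higher in the 3 scrambled hairpin libraries, while astrocyte markers overlap because of replicate 1.

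The machinery that handles a hairpin was examined because only the scrambled group received one. Of 19 genes of RNA interference 10 were lower and 1 higher, and 4 and 1 with offsets. Ago2, the Argonaute protein that cleaves targets, was at 44.8, 42.4 and 41.7 CPM against 80.8, 80.6 and 80.8 CPM (log2FC = -0.91, SE 0.05, adjusted p = 8.5e-08). With offsets its log2FC was -0.53 (adjusted p = 2.7e-05). Ago3 was low in all libraries, at 0.829 to 1.53 CPM against 3.27 to 4.21 CPM (log2FC = -1.48, adjusted p = 0.00036). Dicer1 had a log2FC of -0.21 (adjusted p = 0.006) without offsets and 0.13 (adjusted p = 0.065) with them. Tnrc6a, the scaffold of the silencing complex, had -0.30 (adjusted p = 0.00059) and -0.01 (adjusted p = 0.94). Among 16 receptors and entry factors of the virus 4 were higher and 5 lower (5 and 3 with offsets), and AU040320, the mouse AAV receptor gene, differed slightly (log2FC = -0.19, adjusted p = 0.0058).

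Interferon and heat shock genes showed no common direction. The p53 and integrated stress lists held more lower than higher members, but with all libraries fewer of their members were called than among all genes. The shares called were 34.5% for the p53 list and 19.4% for the integrated stress list, against 43.1% of all genes tested. Of 18 interferon and nucleic acid sensing genes tested 2 were higher and 2 lower (2 and 1 with offsets). Besides H2-D1, the sensor Tlr3 rose (log2FC = 0.87, adjusted p = 0.022), while Stat2 (-0.46, adjusted p = 5.2e-05) and Ifit2 (-0.45, adjusted p = 0.041) fell. The calls of Tlr3 and Ifit2 did not hold with the DESeq2 Wald test (adjusted p = 0.073 for Tlr3 and 0.11 for Ifit2) or without empty vector replicate 1 or 2 or scrambled hairpin replicate 2 (adjusted p from 0.06 to 0.11 for Tlr3 and from 0.11 to 0.12 for Ifit2), and that of Ifit2 did not hold with offsets (adjusted p = 0.14) or without scrambled hairpin replicate 1 (adjusted p = 0.093). Among 29 p53 targets 2 were higher and 8 lower, with the same counts under offsets and 6 and 8 without scrambled hairpin replicate 1, and Zmat3 had a log2FC of -0.54 (-0.26 with offsets). Of 31 genes of the integrated stress and unfolded protein responses 1 was higher, Slc7a11, and 5 were lower, among them Mthfd2 (log2FC = -0.84, adjusted p = 0.01), with 1 and 8 under offsets. This count depended on scrambled hairpin replicate 1, without which 24 were lower and 2 higher. That replicate summed to 4863 CPM over this list, against 3624 and 3527 CPM in replicates 2 and 3 and 4274 to 4364 CPM under the empty vector. Heat shock chaperones were higher in 5 and lower in 5 of 18 (4 and 4 with offsets), with Hspa1b up (log2FC = 0.77) and its near-identical copy Hspa1a down (-0.52), a pair between which reads are easily divided. The Hspa1a call was lost without empty vector replicate 2 or 3 or scrambled hairpin replicate 3 (adjusted p from 0.071 to 0.096).

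The remaining lists differed in direction, with neuropeptide genes more often higher and axon guidance and clock genes more often lower. Neuropeptides and their processing enzymes were higher in 11 and lower in 1 of 27 (11 and 1 with offsets, 11 and 6 without scrambled hairpin replicate 1), with the granule protein Chga at a log2FC of 0.45 (0.25 with offsets). Axon guidance genes were lower in 27 and higher in 6 of 56 (19 and 10 with offsets), with Sema3a at -1.05 and Epha3 at -1.13. Cholesterol genes were higher in 5 and lower in 8 of 26 (2 and 6 with offsets), with a median log2FC of -0.01. Stard4 (log2FC = -0.84) and the synthesis gene Hmgcs1 (-0.46) fell, while the highest log2FC of a member was 0.83. Clock genes were lower in 7 and higher in 1 of 21, with the same counts under offsets and Clock itself at -0.89 (adjusted p = 7e-07, and -0.47 with offsets). Glycolysis and hypoxia genes were higher in 11 and lower in 6 of 27, and 6 and 6 with offsets, with Gapdh at 0.41 and Vegfa at -0.68. Splicing factors reversed their balance under the correction, from 5 higher and 18 lower of 54 to 15 higher and 6 lower. Amyloid and tau genes were higher in 8 and lower in 9 of 34 (8 and 8 with offsets), genes of Dek and the histone chaperones higher in 6 and lower in 5 of 19 (6 and 3), and imprinted genes higher in 8 and lower in 8 of 27 (9 and 5). Cell cycle genes were higher in 3 and lower in 6 of 40 (1 and 5 with offsets), matrix genes higher in 12 and lower in 8 of 46 (14 and 6), and tubulins with their associated proteins higher in 11 and lower in 20 of 48 (8 and 11). Among genes of very high level the chaperone Hspa8, at 3275 to 3941 CPM, fell slightly (log2FC = -0.20, adjusted p = 0.00034).

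Another pair of groups shares no library with this comparison and also sets a U6 hairpin vector against an hSyn1 vector, although with Dek lowered on the hairpin side and raised on the cDNA side. Between Dek hairpin and Dek cDNA 9435 of 14287 genes passed (66%), 33.2% higher and 32.8% lower with the Dek hairpin, and 17.1% were called beyond 1. Of the 6072 genes called between the controls, 6049 were tested there, and 4062 of them (67.2%) were called in the same direction and 569 (9.41%) in the opposite direction. These 4062 genes were 43.8% of the 9264 genes called between Dek hairpin and Dek cDNA and tested in both comparisons. The counts are without offsets, and both comparisons carried the transcript length pattern. Its part in the shared directions was not tested. Of the 377 control differences beyond 1 on the log2 scale that were tested there, 276 were called in the same direction, 8 in the opposite direction and 93 were not called. Among the 6072 genes the 6 hairpin libraries lay above the 6 hSyn1 libraries for 1620 and below them for 1934. Over all 14096 genes tested between the controls, called or not, they lay apart for 4006. The 6072 genes were called with 6 of these 12 libraries, so part of this separation was built in. Neurod6, for example, was at 46.5 to 48.5 CPM in the Dek hairpin libraries and 141 to 171 CPM in the Dek cDNA libraries.

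A smaller set of genes set the scrambled hairpin libraries apart from all others. They were chosen by these values and are described without a test. For 603 of the 6072 called genes the 3 scrambled hairpin libraries lay below the other 9, and for 743 above them. The gap exceeded 0.5 on the log2 scale in 17 and 4 of these at a mean of at least 5 CPM. Between the control groups alone, 53.4% of all genes tested did not overlap. The call had already used 3 of the other 9 libraries, and no such count was made over all genes tested. Plxnd1, a semaphorin receptor on chromosome 6 (GRCm38, 115954811 to 115995339), had by far the widest gap. It was at 59.9, 71.7 and 72.8 CPM under the scrambled hairpin and at 224, 213 and 208 CPM under the empty vector. The Dek hairpin libraries held 265, 297 and 295 CPM and the Dek cDNA libraries 205, 222 and 211 CPM. Mbp, the myelin basic protein, followed the same pattern at 6.92, 6.79 and 8.59 CPM against 15.8 to 21.6 CPM in the other 9 libraries. Mag, another myelin gene, was at or below 0.533 CPM in both control groups.

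Tnr, which encodes the matrix protein tenascin-R, was at 6.47, 7.68 and 7.40 CPM in the scrambled hairpin libraries and 12.9 to 23.8 CPM in the others. Nol4l was at 50.7 to 52.1 CPM against 82.7 to 102 CPM. In the other direction Hap1, a huntingtin partner in vesicle transport, was at 198, 234 and 242 CPM under the scrambled hairpin and 81.0 to 122 CPM elsewhere. Rph3a, a Rab3 effector at synaptic vesicles, was at 324, 358 and 360 CPM under the scrambled hairpin, 179 to 229 CPM under the empty vector and 108 to 122 CPM under the Dek hairpin. For Hap1 and Rph3a the hairpin groups thus lay on opposite sides of the hSyn1 groups.

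**Figure D5:**
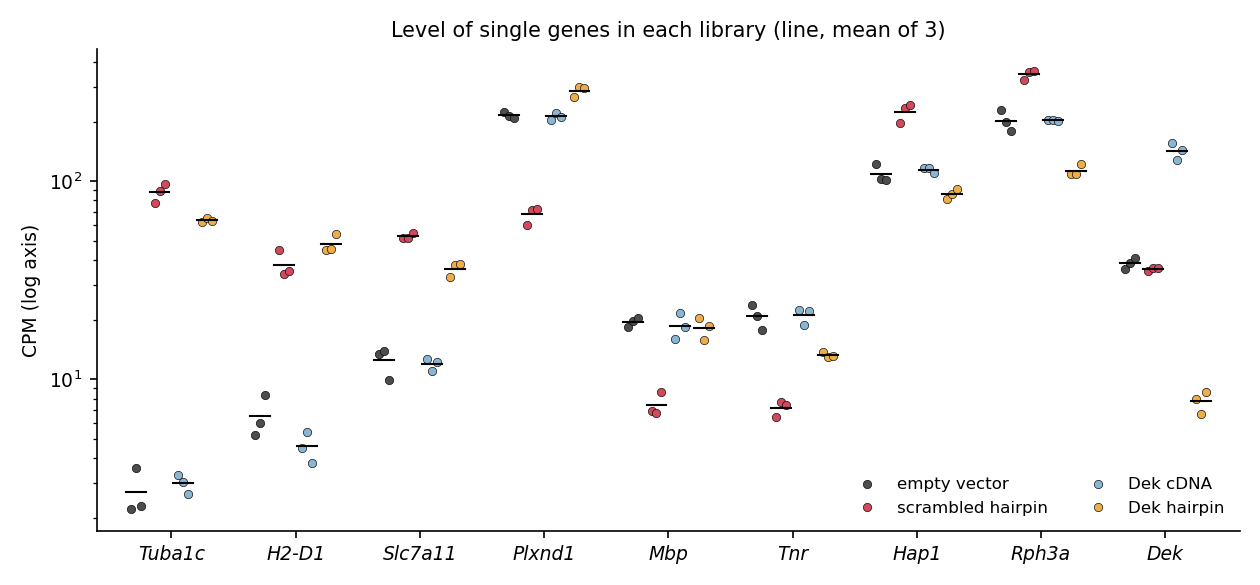
Levels of 9 genes in all 12 libraries. The y axis is CPM on a log axis, each point is a library and each line the mean of 3. Tuba1c, H2-D1 and Slc7a11 are high in both hairpin groups, and Plxnd1, Mbp and Tnr are lowest in the 3 scrambled hairpin libraries. Hap1 and Rph3a are highest there, and Dek overlaps between the control groups.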

How the data were processed

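RNA from 12 culture libraries of 4 groups (n = 3) was sequenced by the submitters from 200 ng of RNA per sample. The authors deposited 1 table of estimated counts per gene, not normalised, with no batch given. The submitters' processing notes name Salmon, DESeq2 and mm10, while the methods of the study describe alignment with STAR, and the strand setting of the counting is not given in the sources used here. The expected counts were rounded to whole numbers, scaled by TMM, filtered with filterByExpr within each comparison and tested with the quasi-likelihood test of edgeR 4.0.16 in R 4.3.3, with Benjamini-Hochberg adjustment over all genes tested and a threshold of 0.05. CPM values use the TMM library sizes. The smooth offsets on GC content and log transcript length were fitted per library with mgcv 1.9.3. The fits were tested on simulated data. Summed lists were compared by an exact two-sided permutation test.

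Alternatives were DESeq2 1.42.0 (size factors and Wald test), limma 3.58.1 (voom), total count scaling, no filter, at least 5 CPM in 3 libraries, 1 fit over 12 libraries, the replicate number as a block, the offsets, and leaving out each library. The rule for named genes took Dek and Mapt, the 15 largest rises and falls among called genes without overlap at a mean of at least 5 CPM, the 5 called genes of highest level, up to 4 called members per direction of each of 49 lists, all members of lists of at most 20 genes, and defining markers. Genes outside the rule were named after their values were seen: further immediate early genes, Bdnf, Tuba1a, Tuba1b, H2-K1, Mt1, Nol4l, Hap1 and Rph3a. The comparison, the lists and the rule were chosen with earlier results of these data known. The table holds 0 mitochondrially encoded genes. Some genes that the rule selects are not reported here. Intervals cover counting error only.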

Additional observations from a re-analysis of the deposited data

How the results depend on the processing

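The 6072 genes called between scrambled hairpin and empty vector were 5190 with the DESeq2 Wald test, 6066 with limma-voom, 6069 with either DESeq2 size factors or total count scaling, and 4645 with GC and length offsets. The replicate numbers did not pair the wells: samples with the same number had correlations of their deviations between -0.24 and -0.04. With the replicate block 4897 genes were called (2351 higher and 2546 lower). With the replicate block and the offsets together 3322 were called, 1772 higher and 1550 lower. Beyond 1 on the log2 scale 398 genes were called, 150 higher and 248 lower, and between Dek hairpin and Dek cDNA 2450 were, 1220 higher and 1230 lower. Leaving out a library gave 4700 to 6497 genes, with 2234 to 3191 higher and 2466 to 3306 lower. Between Dek hairpin and Dek cDNA it gave 8352 to 9404 genes, with 4121 to 4733 higher and 4231 to 4694 lower. Of 105 genes named with a test, 81 kept their direction and their side of the threshold under every alternative run. Erbb4 changed sign with the offsets (0.16) and with the replicate block added to them (0.16), as did Dicer1 (0.13 and 0.13), while H2-K1, not called, ranged from -0.19 to 0.02 when a library was left out (H2-K1 at 0.019 without scrambled hairpin replicate 2). The cause was not tested.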
